A study of Mus musculus with 30 samples.

Results

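The expression of 9 microglia marker genes, P2ry12, Tmem119, Cx3cr1, Csf1r, C1qa, C1qb, C1qc, Trem2 and Tyrobp, was followed in RNA-seq libraries of mouse brain endothelial cells across adult life. The genes were chosen by name, as textbook markers of microglia, and are 9 of the 48795 gene identifiers counted in each library. All 30 libraries came from primary endothelial cells of the brain of untreated wild-type (WT) mice, and the stated design was a regression of expression on age with a correction for sex. The mice were 2, 6, 12, 18 or 24 months old, with 3 male and 3 female libraries at each age, described by the submitters as biological replicates. How the cells were purified, and whether a library pooled several animals, the sources used here do not say, so p-values measure the spread between these libraries. Replicate numbers below only name libraries of 1 age and sex.

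The members lie on 7 chromosomes of the GRCm38 build, and all are protein coding. P2ry12 (ENSMUSG00000036353) is at chromosome 3, 59216272 to 59262871, within Med12l on the other strand. Tmem119 (ENSMUSG00000054675) is at chromosome 5, 113793729 to 113800516, and Cx3cr1 (ENSMUSG00000052336) at chromosome 9, 119901616 to 120069879. Csf1r (ENSMUSG00000024621) is at chromosome 18, 61100598 to 61132149, and its 3′ end overlaps Hmgxb3 on the other strand. Reads over both genes are set aside in the unstranded count, and the sum of the stranded counts of Csf1r was 1.14 times the unstranded one. The genes of the 3 C1q chains form a cluster on the minus strand of chromosome 4, with C1qb (ENSMUSG00000036905) at 136880129 to 136886187, C1qc (ENSMUSG00000036896) at 136889804 to 136893065 and C1qa (ENSMUSG00000036887) at 136895917 to 136898803. Trem2 (ENSMUSG00000023992) is at chromosome 17, 48346401 to 48354147, and Tyrobp (ENSMUSG00000030579) at chromosome 7, 30413760 to 30417585.

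Microglia are the resident macrophages of the brain parenchyma and lie close to capillaries, so their transcripts are often found in preparations of brain vessels. They depend on the Csf1r receptor for survival, sense nucleotides and the neuronal chemokine fractalkine through P2ry12 and Cx3cr1, and are the main source of complement C1q in the brain. In response to damage or ageing they can lower genes of the resting state, such as P2ry12, Tmem119 and Cx3cr1, and raise others through the receptor Trem2 and its signalling adaptor Tyrobp. Endothelial cells are not a known main source of these 9 transcripts. In libraries of bulk RNA, fewer microglia and less RNA of a gene per microglial cell cannot be told apart.

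The members' levels varied together from library to library, so the promoters of those found in the RefSeq promoter table (GRCm38.p6, from 250 bases before to 50 after the RefSeq start) were searched for sites of PU.1, the ETS factor that sets up the myeloid programme, and of its IRF partners. The table held 5 of the 9 members, P2ry12, Cx3cr1, C1qb, C1qc and Trem2. On both strands, the PU.1 core GAGGAA was present in 3 of the 5, against 28.3% of 32851 promoters. The longer form GAGGAAGT, which contains the core, was present in C1qc, against 3.2% of all promoters. The IRF half-site AANNGAAA was present in P2ry12 and C1qc, against 23.9%. The joint ETS-IRF motif GGAANNGAA was in none of the 5, against 8.24%. A match describes letters only and is not evidence of binding. Stretches of 99 or 100 bases are shown 5′ to 3′ on the gene's strand, from −100 to −1 of the RefSeq start for P2ry12, C1qb and Trem2 and from −250 to −152 for C1qc, whose annotated gene in the files' build starts 151 bases upstream of the RefSeq start. They place the core relative to the RefSeq start in the genes that hold it, and show the corresponding stretch of P2ry12, which has none. Capitals mark the PU.1 core or its reverse complement TTCCTC.
P2ry12, chr3:59262986-59263085, minus strand: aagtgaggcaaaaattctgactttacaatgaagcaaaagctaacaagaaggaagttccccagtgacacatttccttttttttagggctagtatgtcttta
C1qb, chr4:136886201-136886300, minus strand: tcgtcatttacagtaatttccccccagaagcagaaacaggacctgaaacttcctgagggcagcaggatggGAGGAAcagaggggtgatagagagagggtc
C1qc, chr4:136893066-136893164, minus strand: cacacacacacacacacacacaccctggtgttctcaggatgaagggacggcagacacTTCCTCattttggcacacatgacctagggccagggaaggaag
Trem2, chr17:48346301-48346400, plus strand: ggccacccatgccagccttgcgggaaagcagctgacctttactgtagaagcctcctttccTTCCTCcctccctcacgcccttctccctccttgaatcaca
The core began at −30 from the RefSeq start in C1qb and at −40 in Trem2. In C1qc it began at −193 from the RefSeq start. That distance depends on the start taken, since the annotated C1qc start lies 151 bases upstream and so much nearer to the core. Distances from the annotated starts were not compared.

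The libraries held between 24140980 and 50464366 reads assigned to genes. Endothelial markers were abundant in every library: Pecam1, the adhesion molecule CD31, ranged from 757.8 to 1300 CPM, a read count scaled to a common library total, and the tight-junction gene Cldn5 from 2568 to 5785 CPM. All 9 members were among the 16844 genes that passed the filter on low counts, with at least 79 reads (Trem2) in the lowest library. A set of 6 libraries was sequenced on another instrument with single-end reads, the labels do not say which, and an effect of this on the members was not tested. Reads outside genes made up 7.99% to 13.1% of the reads of the 18-month libraries and 3.82% to 9.09% at the other ages.

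Compared per kilobase of exon, so that genes of different length can be set side by side, C1qb had the highest level of the 9, with 63.6 ± 38.3 CPM per kilobase (SD, n = 30). C1qc followed with 26.0 ± 17.8, C1qa with 24.1 ± 15.9 and Tyrobp with 23.6 ± 14.8 CPM per kilobase. The order of these last 3 was not stable, since C1qc was above C1qa in 20 and C1qa above Tyrobp in 16 of 30 libraries. Tmem119 stood at 12.2 ± 11.4, P2ry12 at 10.3 ± 11.9 and Csf1r at 8.81 ± 6.81 CPM per kilobase. P2ry12 exceeded Csf1r in 19 of 30 libraries. Cx3cr1 (4.45 ± 4.35) and Trem2 (1.83 ± 1.66 CPM per kilobase) were lowest, and Cx3cr1 exceeded Trem2 in 30 of 30 libraries. One library, described next, set much of this spread: without it the SDs of Tmem119, P2ry12 and Csf1r were 3.61, 3.53 and 3.90 and their means 10.2, 8.20 and 7.78 CPM per kilobase. The exon lengths are sums over all annotated transcripts, so a gene with long rare transcripts, such as Trem2 with 4.946 kilobases, is understated.

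One library, male replicate 1 of 2 months, had the highest level of all 30 for each of the 9 genes. Its P2ry12 level was 179.3 CPM, against at most 38.1 in the other 5 libraries of that age and 46.7 in any other library. Trem2 stood furthest above the other 2-month libraries, at 47.4 CPM or 7.23-fold their mean, and Csf1r least, at 223.1 CPM or 4.03-fold. The summed level of the 9 genes was 1306 CPM there and between 199.6 and 326.4 CPM in the other 5. Because 2 months is the reference age, the main comparisons of age for the 9 genes are given with and without this library.

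Transcripts of other brain cells were high in the same library. Its summed level of 15 other genes of resting microglia was 2.28-fold the mean of the other 5 libraries, with 13 of the 15 at their highest of 30 there, and that of 20 genes shared by microglia and macrophages was 1.92-fold, with 16 at their highest. Abundant genes weigh on these sums, which averaged 436.6 and 570.9 CPM in the other 5. Golm1 in the first and Cyba in the second averaged 172 and 190.3 CPM over the 30 libraries. Neither followed the members there (correlation with their mean level of −0.16 and 0.012). Oligodendrocyte markers were 5.38-fold the mean of the other 5, neutrophil markers 4.15-fold, B cell markers 3.30-fold, smooth muscle markers 2.96-fold, astrocyte markers 2.19-fold and oligodendrocyte precursor markers 2.12-fold. The neutrophil and B cell sums were low, at 3.92 and 10.4 CPM in the other 5. The neutrophil list holds Csf3r, also counted among the resting microglia genes, which averaged 2.15 CPM over the 30 libraries. In the B cell list Ighm averaged 7.42 CPM. Markers of T and NK cells stood at 0.83-fold. Those of erythroid cells were 1.83-fold, of neurons 1.82-fold, of fibroblasts 1.79-fold and of choroid plexus 1.67-fold. Pericyte markers were 1.27-fold, and the 12 endothelial markers stood at 21480 CPM against a mean of 26410 CPM, 0.813-fold. Border macrophage markers stood at 0.895-fold and monocyte markers at 1.11-fold. Of the 12 border macrophage genes 8 averaged under 1 CPM over the 30 libraries, among them Mrc1 (0.652 CPM), Cd163 (0.673), Lyve1 (0.314) and Siglec1, which was at 0 reads in 27 libraries, while Dab2 and Stab1 averaged 203.7 and 47.6 CPM. Of the 10 monocyte genes 6 averaged under 1 CPM, among them Ccr2 (0.489 CPM), while Fn1 and Ace averaged 649.4 and 25.9 CPM. The part of these cell types in the members' levels was not tested.

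**Figure D1:**
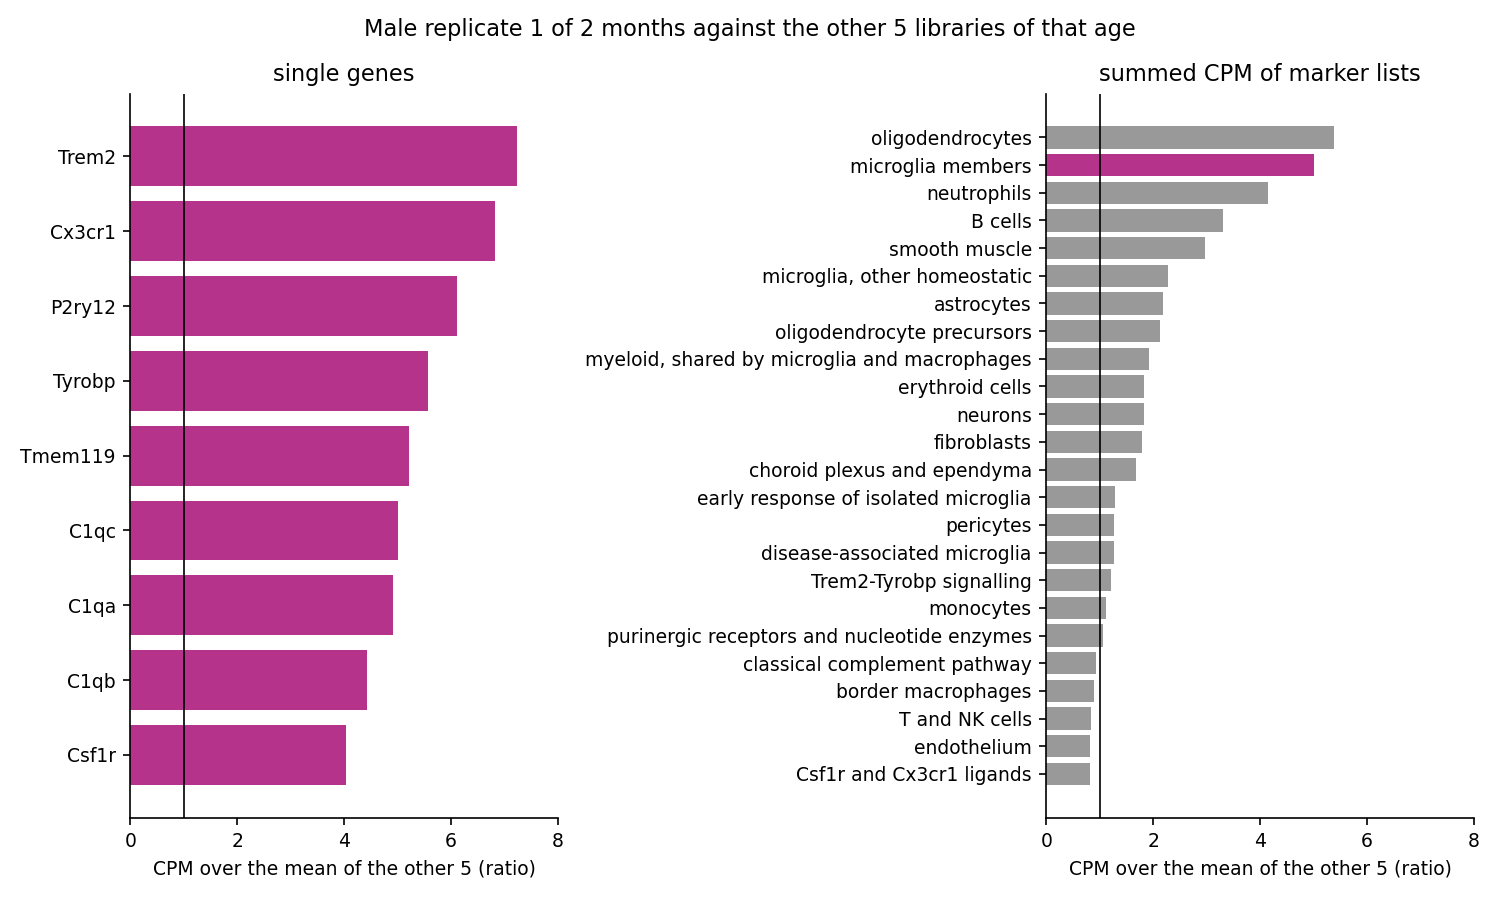
Level in male replicate 1 of 2 months divided by the mean of the other 5 libraries of that age (ratio of CPM, vertical line at 1), for the 9 genes on the left and for the summed CPM of marker lists on the right. The 9 genes lie between 4.03 and 7.23, oligodendrocyte markers at 5.38 and endothelial markers at 0.813.

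The 9 genes did not share 1 course over the ages, as the plot of CPM by age shows. Their summed level was 260.5 ± 47.7 CPM (SD, n = 5) at 2 months without the high library, 273.4 ± 90.6 at 6, 178.6 ± 31.0 at 12, 260.9 ± 151.8 at 18 and 324.9 ± 116.2 CPM at 24 months (n = 6 each). It was therefore lowest at 12 months, and the spread was widest at 18 months. In the edgeR quasi-likelihood fit with sex as a covariate, p-values were adjusted over all 16844 genes by the Benjamini-Hochberg method and a gene was called at an adjusted p under 0.05. No member passed for the linear slope on age, against 10.9% of all genes. At an unadjusted p under 0.05 there were 2 members by edgeR, 2 by DESeq2 and 0 by limma voom, and the adjusted counts of the latter tools were also 0. Without the high library no member passed either (1 at an unadjusted p under 0.05), against 10.5% of all genes. The members' slopes, as log2 change over 22 months, had a median of −0.11, against 0.029 for all genes tested, and their median was 0.42 without that library.

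**Figure D2:**
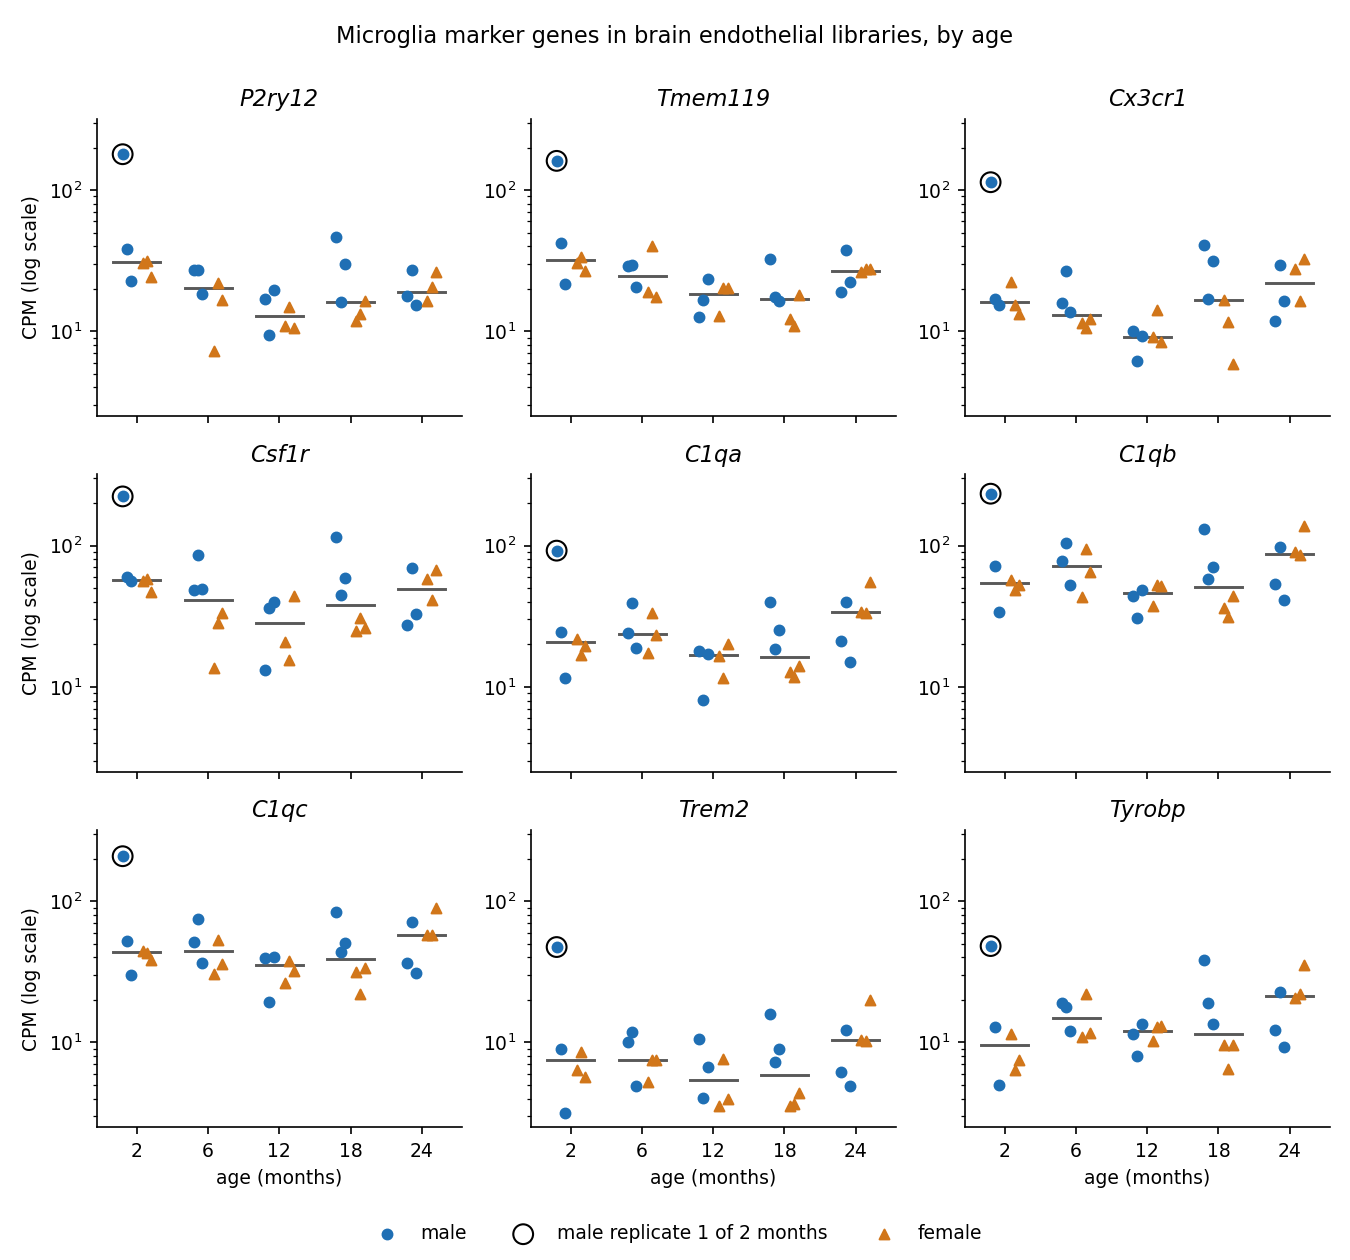
CPM of each gene (log scale) against age in months, 1 point per library, males as circles and females as triangles, with the median of each age as a bar. The circled point, male replicate 1 of 2 months, is the highest of each panel, and in all 9 panels the libraries of 6, 18 and 24 months overlap those of 2 months.

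Each later age was also compared with 2 months. Counting the 9 genes, 1 fell at 6 months (8.76% of all genes were called in either direction), 4 fell at 12 months (2.94%), 2 at 18 months (18.8%) and 1 at 24 months (8.35%), and none rose. At 12 months 8 of the 9, which move together, had an unadjusted p under 0.05, and 4 of the 9 did without the high library. The share of all genes at that unadjusted threshold was not counted. For any difference between the 5 ages, 4 of the 9 passed, against 29.3% of all genes. With the high library left out, 0 passed at 6 months (9.19% of all genes; 2 members at an unadjusted p under 0.05), P2ry12 fell at 12 months (2.72%), Tmem119 fell at 18 months (18.1%), Tyrobp rose at 24 months (8.74%), and 4 members passed for any difference (29.7%).

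**Figure D3:**
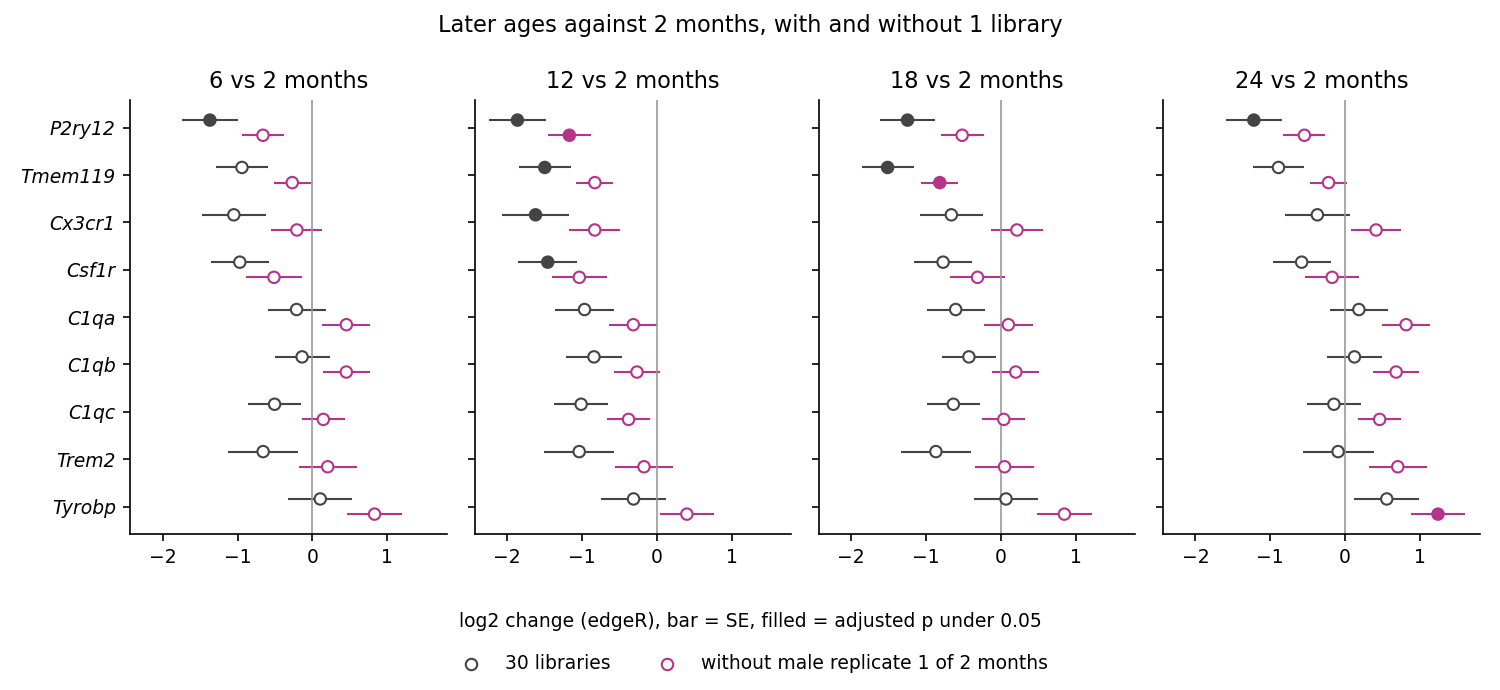
Log2 change of each later age against 2 months (edgeR, bars are standard errors) with all 30 libraries in grey and without male replicate 1 of 2 months in purple, filled where the adjusted p was under 0.05. The values without that library lie to the right of the others for all 9 genes at all 4 ages, and 1 gene is filled at 12, 18 and 24 months.

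P2ry12 encodes the ADP receptor that steers microglial processes towards injured sites and is lost early when microglia leave the resting state. Its lowest, median and highest CPM were 22.7, 30.9 and 179.3 at 2 months, 7.24, 20.2 and 27.2 at 6, 9.36, 12.9 and 19.4 at 12, 11.7, 16.2 and 46.7 at 18, and 15.4, 19.1 and 27.0 at 24 months. The 6 libraries of 12 months all lay below the 6 of 2 months, while those of the other ages overlapped them. The share of all genes with such a separation in CPM was not counted, so how unusual it is cannot be said. P2ry12 fell against 2 months at every later age with all 30 libraries. The log2 changes were −1.37 ± 0.37 (SE, adjusted p = 0.0214) at 6, −1.86 ± 0.38 (adjusted p = 0.00502) at 12, −1.25 ± 0.37 (adjusted p = 0.0179) at 18 and −1.22 ± 0.37 (adjusted p = 0.0389) at 24 months. Leaving the high library out, the change at 12 months was −1.17 ± 0.28 (adjusted p = 0.0215), and those at 6, 18 and 24 months, −0.66, −0.52 and −0.54, did not pass (adjusted p = 0.142, 0.217 and 0.261).

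Other single libraries mattered as well for P2ry12. The call at 6 months was also lost without female replicate 1 of 6 months (adjusted p = 0.0688), and that at 24 months without any of male replicates 1, 2 and 3 or female replicates 1 and 2 of 24 months (adjusted p of 0.0505 to 0.108). At 12 months the call held in all 30 fits that left out 1 library. With limma voom the changes at 6 and 24 months missed the threshold (adjusted p = 0.0542 and 0.0527). The share of reads outside genes, highest at 18 months, moves with that contrast, and with it as a covariate the change at 18 months was −1.85 ± 0.57 (adjusted p = 0.113).

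Tmem119, a membrane protein of resting microglia with little expression in other brain macrophages, had lowest, median and highest levels of 21.7, 32.1 and 160.9 CPM at 2 months, 17.4, 24.8 and 40.1 at 6, 12.6, 18.4 and 23.3 at 12, 10.8, 17.0 and 32.5 at 18, and 19.1, 26.9 and 37.5 CPM at 24 months. The groups overlapped, with the medians of 12 and 18 months lowest. It fell at 12 months with a log2 change of −1.49 ± 0.35 (SE, log2, adjusted p = 0.0149) and at 18 months with a log2 change of −1.51 ± 0.35 (adjusted p = 0.00276). At 6 and 24 months the values were −0.94 (adjusted p = 0.084) and −0.89 (adjusted p = 0.112). When the high library was left out, the change at 18 months was −0.82 ± 0.25 (adjusted p = 0.0207), and that at 12 months −0.83 ± 0.25 (adjusted p = 0.0669). At 6 and 24 months it then stood at −0.27 and −0.22 (adjusted p = 0.546 and 0.655). No other single library ended either call. With reads outside genes as a covariate, the change at 18 months was −1.84 ± 0.53 (adjusted p = 0.0849).

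Cx3cr1 and Csf1r are the receptors through which microglia receive fractalkine from neurons and the survival signals Csf1 and Il34. Cx3cr1 had lowest, median and highest levels of 13.3, 16.2 and 113.6 CPM at 2 months, 10.6, 12.9 and 26.7 at 6, 6.20, 9.16 and 14.1 at 12, 5.82, 16.8 and 41.1 at 18, and 11.8, 22 and 32.4 CPM at 24 months. Csf1r had 47.2, 57.0 and 223.1 CPM at 2 months, 13.5, 41.1 and 86.0 at 6, 13.1, 28.5 and 43.8 at 12, 24.9, 37.7 and 115.4 at 18, and 27.5, 49.6 and 70.0 CPM at 24 months. In the other 5 libraries of 2 months Csf1r was even, at 55.4 ± 4.85 CPM (SD, n = 5). Its 6 libraries of 12 months all lay below those of 2 months, and so did those of Cx3cr1 except 1. Here too the share of all genes with such a separation was not counted.

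With all 30 libraries both receptors fell at 12 months, Cx3cr1 with a log2 change of −1.62 ± 0.44 (SE, log2, adjusted p = 0.0408) and Csf1r with a log2 change of −1.45 ± 0.39 (adjusted p = 0.0383), and passed for any difference between ages (adjusted p = 0.0387 and 0.044). At 24 months the values were −0.37 and −0.58 (adjusted p = 0.689 and 0.421). Once the high library was left out, the changes at 12 months were −0.83 ± 0.34 for Cx3cr1 (adjusted p = 0.203) and −1.03 ± 0.37 for Csf1r (adjusted p = 0.131), while any difference between ages passed for Cx3cr1 (adjusted p = 0.0374) and not for Csf1r (adjusted p = 0.17). At 24 months they then stood at 0.41 and −0.17 (adjusted p = 0.52 and 0.843). The sign of the Cx3cr1 slope on age depended on that library, at −0.11 ± 0.40 with it and 0.56 ± 0.31 without (adjusted p = 0.894 and 0.258).

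These calls lay close to the threshold. For Cx3cr1 at 12 months, leaving out male replicate 1 or female replicate 1 of 2 months, or any 12-month library but female replicate 2, ended the call (adjusted p of 0.0599 to 0.203). For Csf1r it ended without male replicate 1 or any female replicate of 2 months, or without any 12-month library but female replicate 3 (adjusted p of 0.0512 to 0.131). The call of Cx3cr1 for any difference ended in 13 of 30 such fits, namely without female replicate 1 of 2 months, male replicate 1 or a female replicate of 6 months, a male replicate or female replicates 1 and 3 of 12 months, female replicate 1 of 18 months and female replicates 1 and 3 of 24 months (adjusted p of 0.0509 to 0.0802). That of Csf1r ended in 20 of 30, namely without male replicate 1 or a female replicate of 2 months, male replicate 1 or female replicates 2 and 3 of 6 months, a male replicate or female replicates 1 and 2 of 12 months, male replicates 2 and 3 or a female replicate of 18 months, and male replicate 2 or female replicates 1 and 2 of 24 months (adjusted p of 0.0509 to 0.17).

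C1qa, C1qb and C1qc encode the chains of C1q, which starts the classical complement pathway and tags synapses for removal by microglia. C1qb had lowest, median and highest levels of 34.1, 54.6 and 233.2 CPM at 2 months, 43.0, 71.4 and 105.1 at 6, 30.8, 46.2 and 52.5 at 12, 31.4, 51.1 and 130.3 at 18, and 41.4, 87.8 and 137.7 CPM at 24 months. C1qa ranged from 8.11 CPM at 12 months to 92.1 in the high library, with medians of 20.7, 23.6, 16.9, 16.3 and 33.6 CPM from 2 to 24 months. C1qc ranged from 19.3 CPM at 12 months to 208.3, with medians of 43.8, 44.3, 35.1, 38.8 and 57.8 CPM. In all 3 genes the median at 24 months was the highest of the 5, and the groups of 2 and 24 months overlapped.

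None of the C1q genes passed in any of the 4 contrasts with all 30 libraries, by edgeR, DESeq2 or limma voom. At 24 months the log2 changes were 0.18 ± 0.39 for C1qa, 0.12 ± 0.37 for C1qb and −0.15 ± 0.36 for C1qc (SE, adjusted p of 0.848, 0.9 and 0.868). At 12 months they were −0.96, −0.84 and −1.01 (adjusted p = 0.2, 0.247 and 0.136), with all 3 at an unadjusted p under 0.05 by edgeR. After the high library was set aside, those of 12 months became −0.31, −0.26 and −0.38 (adjusted p = 0.686, 0.732 and 0.55). Those of 24 months became 0.81 ± 0.32, 0.68 ± 0.31 and 0.46 ± 0.28 (adjusted p of 0.12, 0.189 and 0.363), and C1qa passed for any difference between ages (adjusted p = 0.0369), which it did not with all libraries (adjusted p = 0.113).

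Trem2 binds lipids and apolipoproteins at the microglial surface and has no signalling tail of its own. Tyrobp, also called DAP12, is the adaptor that carries its signal. Trem2 had lowest, median and highest levels of 3.15, 7.48 and 47.4 CPM at 2 months, 4.92, 7.48 and 11.9 at 6, 3.54, 5.40 and 10.5 at 12, 3.55, 5.85 and 15.9 at 18, and 4.94, 10.3 and 20.0 CPM at 24 months. Those of Tyrobp were 4.99, 9.54 and 48.1 CPM at 2 months, 10.97, 14.9 and 22 at 6, 8.07, 12.1 and 13.4 at 12, 6.53, 11.5 and 38.1 at 18, and 9.32, 21.3 and 35.4 CPM at 24 months. The highest 2-month library aside, the other 5 averaged 8.65 ± 3.38 CPM of Tyrobp (SD), below the median of every later age.

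Trem2 passed in none of the comparisons, with log2 changes between −1.03 (12 months, adjusted p = 0.26) and −0.09 ± 0.47 (24 months, SE, adjusted p = 0.943). Its changes without the high library lay between −0.17 at 12 months (adjusted p = 0.878) and 0.70 ± 0.39 at 24 months (adjusted p = 0.296). Tyrobp was at 0.56 ± 0.43 at 24 months with all 30 libraries (adjusted p = 0.508). Without the high library it rose by 1.24 ± 0.37 (adjusted p = 0.0307) at 24 months, the one contrast of that fit in which a member rose. At 6 and 18 months it then stood at 0.83 and 0.85 (adjusted p = 0.15 and 0.11).

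Since the 9 genes varied together between libraries, each was also set against the C1q genes of its own library, a reference chosen after the members' values were seen. The log2 ratio of a gene to the mean of C1qa, C1qb and C1qc removes what all 4 share, and it shows unequal change, not which of the genes changed. The SD over the 30 libraries was smaller on this scale, 0.52 in place of 0.85 for P2ry12, 0.33 in place of 0.84 for Trem2 and 0.34 in place of 0.76 for Tyrobp (log2). On this scale the high library stood closer to its group. Its Csf1r, Tmem119 and Tyrobp ratios lay within the range of the other 5 libraries of 2 months, and its P2ry12, Cx3cr1 and Trem2 ratios were the highest of the 6, at 0.12 for P2ry12 with the next at −0.0047.

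The P2ry12 ratio was −0.16 ± 0.22 (SD, n = 6) at 2 months, with a range of −0.48 to 0.12. At later ages it averaged −1.23 ± 0.43 (6 months), −1.04 ± 0.33 (12), −0.81 ± 0.25 (18) and −1.33 ± 0.40 (24, n = 6 each). All 24 later libraries, from −1.97 to −0.57, lay below all 6 of 2 months. For a count over all genes, 16836 were put on a like scale, with a small constant added to each gene's CPM before the log. The constant weighs most on genes of low level. Of these genes 4 (0.0238%) had 2-month libraries that did not overlap the 24 later ones: P2ry12, the apelin receptor gene Aplnr, BC107364 and mt-Rnr1. Against 24 months alone 38 genes (0.226%) did not overlap, among them P2ry12, Csf1r and Tyrobp. The 4 are among the 38, and both counts were made after the pattern of P2ry12 had been seen. In the high library C1qa, C1qb and C1qc stood at 4.91-, 4.43- and 5.01-fold the mean of the other 5 of that age. A gene that did not follow them there has a wide 2-month range on this scale and overlaps readily. Both shares are therefore not a rate among genes that vary with C1q, and do not measure how rare the P2ry12 pattern is.

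The other genes differed in this respect. Tmem119 had a ratio of −0.14 ± 0.16 at 2 months and −0.86 ± 0.39 over the later libraries (SD), 22 of 24 of which lay below the 2-month range. Csf1r stood at 0.67 ± 0.35 at 2 months, and 19 of 24 later libraries were below its range, including all 6 of 24 months. Cx3cr1 stood at −0.95 ± 0.39, with 12 of 24 later libraries below and 1 above. Tyrobp moved the other way, from −2.005 ± 0.27 to −1.39 ± 0.23, with 22 of 24 later libraries above the 2-month range. Trem2, the partner of Tyrobp, kept its ratio to C1q within the 2-month range in 21 of 24 later libraries (−2.34 ± 0.41 at 2 months and −2.41 ± 0.32 later). Among the 36 pairs of members, P2ry12 over Tyrobp had the largest difference in mean log2 ratio between 2 and 24 months, at 1.84 ± 0.35 at 2 months and 0.11 ± 0.47 at 24 months.

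**Figure D4:**
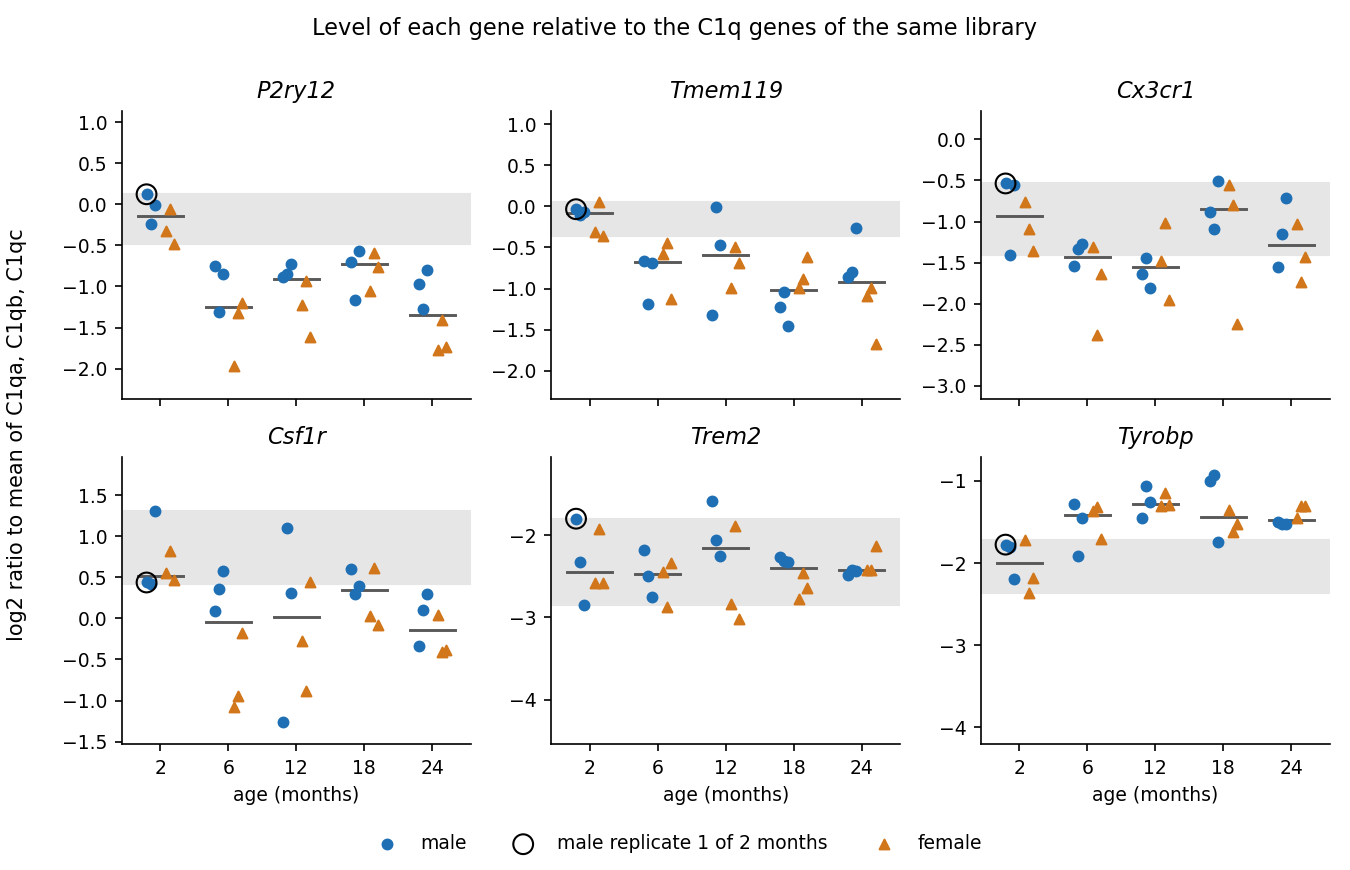
Log2 ratio of each of 6 genes to the mean of the 3 C1q genes of the same library against age in months, 1 point per library, with the median of each age as a bar and the range of the 2-month libraries shaded. All 24 later libraries lie below the shaded range for P2ry12, 22 of 24 above it for Tyrobp, and 21 of 24 inside it for Trem2.

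A related comparison was made as a test, with the same reference, chosen after the members' values were seen. Its p-values are therefore not those of a comparison planned beforehand. The ratio fixes the weight of C1q at 1, while here it was fitted for each gene. The mean log2 CPM of the 3 C1q genes was added to the edgeR fit as a covariate and the other 6 members were examined. Of these, 2 fell along the slope on age (11.5% of all genes were called), 3 fell and 1 rose at 6 months (9.75%), 1 fell and 1 rose at 12 months (3.51%), 2 fell and 1 rose at 18 months (17.6%), and 2 fell and 1 rose at 24 months (8.51%). For any difference between ages 3 of 6 passed, against 29.9% of all genes. P2ry12 fell relative to C1q at every later age, with log2 changes of −1.05 ± 0.15 at 6 months (SE, adjusted p = 5.65e-05), −0.94 ± 0.16 at 12 (adjusted p = 0.00101), −0.67 ± 0.16 at 18 (adjusted p = 0.0033) and −1.15 ± 0.15 at 24 months (adjusted p = 8.36e-06), and its slope was −0.76 ± 0.20 (adjusted p = 0.0124). These 5 calls held in all 30 fits that left out 1 library. With the high library left out, the values were −0.96, −0.91, −0.61 and −1.03, and the slope −0.61 ± 0.20 (adjusted p = 0.0407).

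Tyrobp rose relative to C1q at all 4 later ages, by 0.51 ± 0.14 (SE, adjusted p = 0.0239), 0.81 ± 0.15 (adjusted p = 0.00264), 0.69 ± 0.15 (adjusted p = 0.00137) and 0.53 ± 0.14 (adjusted p = 0.0163), and its slope of 0.45 did not pass (adjusted p = 0.0732). The call at 6 months ended without female replicate 2 of 2 months (adjusted p = 0.0658). Tmem119 fell at 6, 18 and 24 months, with log2 changes of −0.65 ± 0.18, −0.98 ± 0.18 and −0.76 ± 0.18 (adjusted p = 0.0215, 0.000481 and 0.00601), and along the slope with a log2 change of −0.69 ± 0.18 (adjusted p = 0.00935). Leaving the high library out, its changes at 6 and 24 months, −0.48 and −0.56, missed the threshold (adjusted p = 0.1 and 0.0563), and without female replicate 3 of 6 months that of 6 months did (adjusted p = 0.059). At 12 months Tmem119 stood at −0.66 (adjusted p = 0.0545) and passed without female replicate 2 of 6 months (adjusted p = 0.0382) or male replicate 2 of 12 months (adjusted p = 0.0314). Csf1r fell at 6 months with a log2 change of −0.82 ± 0.26 (adjusted p = 0.0427), a call that ended in 11 of 30 fits that left out 1 library (adjusted p of 0.0503 to 0.136), namely male replicates 1 and 3 or a female replicate of 2 months, male replicate 1 or a female replicate of 6 months, male replicate 3 of 12 months and female replicate 2 of 24 months. Cx3cr1 passed at none of the ages (−0.63 ± 0.23 at 6 months, adjusted p = 0.0827), but did at 6 months without female replicate 3 of 18 months (adjusted p = 0.0433). Csf1r passed at 12 months without female replicate 3 of 12 months (adjusted p = 0.0466) and at 24 months without male replicate 1 of 12 months (adjusted p = 0.0322). Trem2 passed at none of the ages, with changes between −0.17 and 0.23.

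The reference mattered for the size of these values. With 15 other genes of resting microglia as the covariate in place of C1q, Tyrobp rose by 1.10 to 1.39 at all 4 ages (adjusted p of 0.00108 to 0.00583), and C1qa and C1qb rose at 6 and 24 months, by 0.75 and 0.68 for C1qa (adjusted p = 0.0225 and 0.0214) and 0.76 and 0.57 for C1qb (adjusted p = 0.00798 and 0.024). Tmem119 fell at 18 months, with a log2 change of −0.60 (adjusted p = 0.0172), and along the slope, at −0.46 (adjusted p = 0.047). P2ry12 then fell at 24 months only, with a log2 change of −0.64 ± 0.19 (SE, adjusted p = 0.0278), with −0.42, −0.35 and −0.27 at 6, 12 and 18 months (adjusted p = 0.182, 0.514 and 0.386). Without male replicate 1 of 2 months, C1qb at 24 months (0.48, adjusted p = 0.0552) and the Tmem119 slope (−0.45, adjusted p = 0.0638) no longer passed, and C1qb passed at 18 months (0.47, adjusted p = 0.0441). The other calls held there, with Tyrobp at 1.02 to 1.52 (adjusted p of 0.00169 to 0.00413), C1qa at 0.75 and 0.61 (adjusted p = 0.0242 and 0.0491), C1qb at 0.76 at 6 months (adjusted p = 0.0052), Tmem119 at −0.60 (adjusted p = 0.0206) and P2ry12 at −0.66 (adjusted p = 0.0336). With reads outside genes as a further covariate beside C1q, P2ry12 fell at all 4 ages (adjusted p of 9.51e-06 to 0.0325), while at 18 months Tyrobp (0.69 ± 0.24, adjusted p = 0.172) and Tmem119 (−1.11 ± 0.30, adjusted p = 0.059) did not pass.

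All 9 genes had higher fitted levels in male than in female libraries, by 0.31 to 0.72 on the log2 scale, but none passed with edgeR after adjustment (4 at an unadjusted p under 0.05: P2ry12, Cx3cr1, Csf1r and Trem2), against 0.101% of all genes. When the high library was left out, the range was 0.07 to 0.54, with 2 at an unadjusted p under 0.05. Sex differences in the slope on age were not called for any member (2 at an unadjusted p under 0.05), nor for any gene tested (0%). DESeq2 and limma voom were not run for these 2 tests.

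At 18 months the sexes separated in level. The 3 male libraries were all above the 3 female libraries for 7 of the 9 genes, which move together and are not 7 separate observations, against 11% of all genes. C1qb stood at 58.1, 71.0 and 130.3 CPM in the males and 31.4, 36.0 and 44.2 CPM in the females, and Trem2 at 7.29, 8.93 and 15.9 against 3.55, 3.64 and 4.41 CPM. P2ry12 and Tmem119 were the exceptions, with overlapping sexes. At 6 months Cx3cr1 and Csf1r showed the same order (16.3% of all genes did), and at 2, 12 and 24 months none of the 9 did. The sexes were not tested within an age. In the sample titles the male libraries of 18 months share a leading code and the female ones share another. What the code stands for the titles do not say, so sex and code cannot be told apart at that age. At 6, 12 and 24 months the sexes share no code either (number and letter), while all libraries of 2 months share theirs. Each code occurs at a single age, so age and code cannot be told apart either.

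In the 15 female libraries alone, which leave out the high library, all 9 genes passed for any difference between ages (adjusted p of 0.00059 to 0.0211), against 37.5% of all genes. P2ry12 and Csf1r fell at 6 months, with log2 changes of −0.91 ± 0.30 and −1.09 ± 0.34 (SE, adjusted p = 0.042 and 0.0304, 22.3% of all genes). P2ry12 and Tmem119 fell at 18 months, with log2 changes of −1.06 ± 0.31 and −1.14 ± 0.29 (adjusted p = 0.0224 and 0.0104, 20% of all genes). At 24 months C1qa, C1qb and Tyrobp rose, by 1.07 ± 0.25, 0.99 ± 0.24 and 1.62 ± 0.31 (adjusted p = 0.017, 0.0209 and 0.00492, 8.41% of all genes). The female C1qa levels were 16.7, 19.6 and 21.8 CPM at 2 months and 33.2, 34.03 and 54.9 CPM at 24 months, without overlap. Those of C1qb, C1qc, Trem2 and Tyrobp did not overlap either, while those of P2ry12, Tmem119, Cx3cr1 and Csf1r did. The share of all genes separated in this way was not counted, so how unusual it is cannot be said. The genes move together, so neither these separations nor the 9 calls for any difference are separate observations. In the 15 male libraries alone no member passed for any difference (4 at an unadjusted p under 0.05, and 1 without the high library), against 1.5% of all genes. Whether the sexes differ beyond the slope was not tested.

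The ligands of the receptors were measured too. Of 3, Csf1 and Cx3cl1, which encodes fractalkine, rose along the slope on age (5.72% of all genes did), and Il34 stood at −0.18 (adjusted p = 0.672). Their median slope was 0.40, against 0.029 for all genes. Cx3cl1 averaged 271.0 ± 30.6 CPM in the youngest and 375.5 ± 42.9 CPM in the oldest mice (SD, n = 6 each), with a slope of 0.40 ± 0.12 (SE, adjusted p = 0.0275). Csf1 averaged 81.2 ± 17.2 and 110.5 ± 22.4 CPM, with a slope of 0.73 ± 0.19 (adjusted p = 0.012). Across the 30 libraries the correlation with the members' mean level was 0.063 for Csf1, 0.029 for Cx3cl1 and 0.35 for Il34. The 3 ligands were not high in the library that stood apart, where their sum was 0.81-fold the mean of the other 5, and without it Cx3cl1 and Csf1 passed as well (slopes of 0.37 and 0.72, adjusted p = 0.0492 and 0.018).

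Of 20 genes raised in disease-associated microglia, 5 rose and 1 fell along the slope on age (5.72% and 5.22% of all genes did), and their median slope was 0.66 against 0.029 for all genes. The 5 were Cst7, Clec7a, Csf1, Gpnmb and Lyz2, and the 1 that fell was Apoe, which astrocytes also make in large amounts. Lyz2, the lysozyme of myeloid cells, averaged 14.7 ± 5.17 CPM in the youngest mice without the high library (SD, n = 5) and 47.2 ± 16.2 CPM in the oldest (n = 6), with a slope of 1.52 ± 0.27 (SE, adjusted p = 0.00037). Gpnmb, a lysosomal glycoprotein, had no read in the 6 libraries of 2 months and 1.49 ± 1.41 CPM at 24 months (SD, n = 6), at least 13.3-fold higher than the floor of 3 counts per library. Cst7, a cystatin, averaged 0.0965 and 2.26 CPM (slope 4.35 ± 0.87, adjusted p = 0.00124) and Clec7a, the receptor dectin-1, 0.408 and 2.73 CPM (slope 3.53 ± 0.96, adjusted p = 0.016). Once the high library was left out, 6 rose, Ccl6 in addition, and 1 fell.

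Of the 15 other genes of resting microglia, 0 passed for the slope by edgeR, DESeq2 or limma voom (10.9% of all genes did by edgeR). Each tool had 1 at an unadjusted p under 0.05. Their median slope was −0.46, and 0.06 without the high library, against 0.029 for all genes. At 12 months 4 fell (1.56% of all genes did), Fcrls, Gpr34, P2ry13 and Selplg, a count of 1 without that library. Selplg carries the selectin ligand PSGL-1 and P2ry13 is an ADP receptor. Of 20 genes shared by microglia and macrophages, Lyn fell along the slope (5.22% of all genes did) with a log2 change of −0.52 ± 0.09 (SE, adjusted p = 0.000485) and the median was 0.11, while Cd68, a lysosomal protein, rose without the high library (1.06, adjusted p = 0.019).

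Around Trem2 and Tyrobp, 15 of 21 signalling genes and ligands passed the filter. Along the slope on age 1 rose and 1 fell, against 5.72% and 5.22% of all genes. Plcg2, the phospholipase that carries the Trem2 signal in microglia, rose by 1.02 ± 0.15 over 22 months (SE, adjusted p = 4.1e-05), from 19.0 ± 3.03 to 35.5 ± 7.21 CPM (SD), and Apoe, a Trem2 ligand, fell with a log2 change of −0.46 ± 0.14 (adjusted p = 0.0262). The median slope of the 15 was 0.035, and without the high library 3 rose, Pik3cd and Ms4a6d in addition, and 1 fell, with a median of 0.30. Of 14 tested genes of the classical complement pathway beyond C1q, 1 passed, against 10.9% of all genes. It was the inhibitor Cd55, which fell with a log2 change of −0.89 ± 0.28 (SE, adjusted p = 0.0354). The median slope of the 14 was −0.0037. In the fit without the high library C3 rose in addition, and the median was 0.27. Of 10 purinergic receptors and nucleotide enzymes, P2rx4 and P2ry1 rose (5.72% of all genes did), by 0.60 ± 0.10 (adjusted p = 8.7e-05) and 1.19 ± 0.19 (adjusted p = 7.5e-05), with a median of 0.12 over the 10, and the same 2 passed without the high library. In the same list P2ry13, the neighbour and close relative of P2ry12, stood at −0.96 ± 0.58 (adjusted p = 0.304). Across the 30 libraries Plcg2, P2rx4 and P2ry1 did not follow the members (correlation with their mean level of −0.20, −0.19 and −0.28). The same correlation was 0.32 for Apoe and 0.21 for Cd55. Which cells the transcripts of these lists came from was not tested.

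Of 12 genes that microglia raise when they are isolated from tissue, with a median slope of 0.86 against 0.029 for all genes, 4 rose (5.72% of all genes did), Fos, Egr1, Nfkbiz and Zfp36, and 6 without the high library, Ccl3 and Ccl4 in addition. Egr1, an immediate-early transcription factor, averaged 78.8 ± 27.1 CPM in the youngest and 214.6 ± 189.3 CPM in the oldest mice (SD, n = 6 each). Among markers of other vessel and brain cells, 3 of 8 pericyte genes and 1 of 8 smooth muscle genes rose, against 5.72% of all genes, and 2 of 8 astrocyte genes and 4 of 7 choroid plexus genes fell, against 5.22%. In the fit without the high library these counts were 4, 4, 1 and 2. The part of these in the members' changes was not tested.

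Across the 30 libraries the 36 pairs of members had Pearson correlations of log2 CPM from 0.53 (Csf1r and Tyrobp) to 0.96 (C1qa and C1qb), with a median of 0.80. After the high library was set aside, the range was 0.38 (P2ry12 and Tyrobp) to 0.96 (C1qb and C1qc), with a median of 0.69. The libraries share age, sex and cell make-up, so these values describe how the genes went together and carry no test.

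The genes most like the members were found by the correlation of their log2 CPM with the mean standardised log2 CPM of the 9, over 30 libraries, among 13075 genes of at least 1 CPM on average. The 20 highest had r of at least 0.80, against a median of 0.0044 for all ranked genes. Among the highest were Ctss (0.93), a cathepsin, Gpr34 (0.92), Laptm5 (0.92), Ly86 (0.90), Selplg (0.90) and Fcer1g (0.90). Siglech, Pld4, Basp1, Aif1, Lgmn, Fcgr3, Fcrls, Cd53, Irf8, Rgs10, Syngr1, Cd68 and Hpgds were also among the 20, of which 14 were in the lists of resting microglia and shared myeloid genes. Without the high library 19 of the 20 were again in the first 20, Ctss (0.94) among them, and on deviations from the age and sex means 15 were.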

How the data were processed

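RNA-seq was made from 30 libraries with SMART-Seq v4 full-length cDNA and Nextera XT, per the labels' protocols. The deposited values are counts of reads per gene, made by the authors with STAR 2.5.2b on GRCm38 (mm10), with FastQC 0.11.4, HTSeq and MultiQC also named, per the submitters' processing notes. The unstranded count was used: reads were split evenly between strands, reads over more than 1 gene (3.61% to 4.21%) were set aside, so a gene that overlaps another loses reads, and there were no molecular identifiers. The 48795 identifiers were matched to gene names (48349 matched), and lines that name no gene were kept out of totals.

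Genes were filtered with edgeR's filterByExpr (minimum count 10, minimum total 15), which left 16844 tested genes and put 31951 aside. CPM used TMM-scaled library sizes. The main test was edgeR 4.0.16 (quasi-likelihood, robust) in R 4.3.3 with sex as a covariate, for a slope on age scaled to 22 months, for each age against 2 months, for any age and for sex by age, with Benjamini-Hochberg adjustment. DESeq2 1.42.0, limma 3.58.1 (voom), other scalings, no filter, other covariates and leaving out each library were alternatives. The code was tested on simulated counts. The named genes were the 9 members, up to 6 genes per list that passed the slope, and the 20 genes most like the members, of which 1 is not reported here. The members and lists were chosen with earlier results of these data known. The C1q reference, the comparison of the sexes within an age and the fits that combined a covariate or 1 sex with leaving out the high library were chosen after seeing the data. Replicate libraries differed by more than sampling noise in all 30 pairs.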

Additional observations from a re-analysis of the deposited data

Results flagged for a closer look

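In each age group of 6 libraries the highest or lowest value was compared with its nearest neighbour. A value was picked out when that gap, as a share of the group's range, exceeded Dixon's critical value for 6 samples, which chance does in about 1 of 20 groups. Of 75 groups examined, 14 were picked out, and 9 of these were the same library, male replicate 1 of 2 months. It held 179.3 CPM of P2ry12, 160.9 of Tmem119, 113.6 of Cx3cr1, 223.1 of Csf1r, 92.13 of C1qa, 233.2 of C1qb, 208.3 of C1qc, 47.36 of Trem2 and 48.13 CPM of Tyrobp, and each was the highest of its age.

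At 18 months male replicate 1 held 32.54 CPM of Tmem119, with the next library at 17.97 CPM. At 6 months male replicate 2 held 26.67 CPM of Cx3cr1, with the next at 15.82 CPM. On the scale of log2 ratios to the C1q genes, Cx3cr1 was lowest in female replicate 2 of 6 months, at −2.379 with the nearest at −1.641, and in female replicate 3 of 18 months, at −2.242 with the nearest at −1.095. Trem2 was highest in female replicate 3 of 24 months, at −2.135 with the nearest at −2.422. What sets these libraries apart was not tested.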

How the results depend on the processing

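The cause of the differences below was not tested. No paired analysis was possible because the labels give no replicate numbers that tie libraries of different ages, and the numbers used here only name them. Of 1257 values under an alternative, 1093 kept their direction and their side of the threshold (counts within 1.5 times), 46 reversed, 5 were newly past the threshold and 113 counts moved. For sex and for sex by age, 0 members were called in every alternative run.

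Members called for the slope were 0 with all libraries, 1 with other resting microglia genes as a covariate, 2 with the C1q covariate and 2 with it and without the high library. At 6 months the count of 1 became 2 by DESeq2, 0 by limma voom, 0 with no filter, 0 in males, 0 in males without the high library, 2 in females, 3 with the resting-gene covariate with and without that library, 4 with the C1q covariate and 2 with it and without that library. At 12 months the count of 4 became 1 with no filter, 0 in males with and without that library, 0 in females, 1 with the resting-gene covariate with and without that library and 2 with the C1q covariate with and without it. At 18 months the count of 2 became 1 with no filter, 0 in males with and without that library and 0 with reads outside genes as a covariate. At 24 months the count of 1 became 0 with library totals only, 0 by limma voom, 0 with no filter, 0 in males with and without that library, 3 in females, 4 with the resting-gene covariate (3 without that library) and 3 with the C1q covariate (2 without it). For any difference the count of 4 became 2 by limma voom, 2 with no filter, 0 in males with and without that library, 9 in females and 2 with reads outside genes as a covariate.

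Over all genes, 1843 were called for the slope, and 940 without the 2-month libraries, 726 without the 18-month libraries, 193 in males, 156 in males without the high library, 623 in females and 402 with reads outside genes as a covariate. At 6 months 1476 became 967 with no filter, 81 in males, 35 in males without that library and 3754 in females. At 12 months 495 became 902 by DESeq2, 63 in males, 41 in males without that library, 264 in females, and 204 and 116 with the resting-gene covariate with and without that library. At 18 months 3163 became 275 in males, 122 in males without that library and 214 with reads outside genes. At 24 months 1406 became 253 and 138 in males. For any difference 4935 became 254 and 142 in males and 1431 with reads outside genes.

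With the C1q covariate, the members called for the slope went from 2 to 1 with reads outside genes added, 1 in females and 0 in males. Those at 6 months went from 4 to 0 in males, those at 12 months from 2 to 0 in females and 0 in males, those at 18 months from 3 to 1 with reads outside genes, 0 in females and 1 in males, and those at 24 months from 3 to 0 in females and 1 in males. For any difference 3 became 5 by DESeq2 and 0 in males.

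Leaving out 1 library at a time gave 0 to 0 members for the slope, 0 to 1 at 6, 1 to 4 at 12, 1 to 2 at 18 and 0 to 1 at 24 months, 2 to 4 for any difference, and 0 to 0 for sex and for sex by age. Over all genes the ranges were 1308 to 2021, 763 to 2181, 322 to 568, 2318 to 3313, 1029 to 1497 and 3910 to 5617. With the C1q covariate the ranges of members were 2 to 2, 2 to 5, 2 to 3, 3 to 3, 2 to 4 and 3 to 5.

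No member's slope passed with all libraries, and several changed sign. Without the 2-month libraries the slopes were 0.31 for P2ry12, 0.020 for Tmem119, 0.98 for Cx3cr1, 0.60 for Csf1r, 0.44 for C1qc and 0.59 for Trem2. In females they were 0.57 for Cx3cr1, 0.14 for Csf1r, 0.50 for C1qc and 0.70 for Trem2. In males they were −0.55 for C1qa, −0.55 for C1qb and −0.19 for Tyrobp, and without the high library 0.52 for Cx3cr1, 0.13 for C1qc and 0.26 for Trem2. By limma voom Cx3cr1 was at 0.082 and Trem2 at 0.021, and with no sex covariate C1qb was at −0.025. With the resting-gene covariate Cx3cr1 was at 0.37, C1qc at 0.16 and Trem2 at 0.25 (0.36, 0.14 and 0.26 without the high library). With the C1q covariate Cx3cr1 was at 0.011 (0.17 without it), and Trem2 was at 0.020 without it. Leaving out 1 library at a time, the slopes ranged from −1.10 to −0.30 for P2ry12, −0.98 to −0.29 for Tmem119, −0.32 to 0.56 for Cx3cr1, −0.56 to 0.016 for Csf1r, −0.19 to 0.52 for C1qa, −0.20 to 0.42 for C1qb, −0.34 to 0.35 for C1qc, −0.44 to 0.53 for Trem2 and 0.20 to 0.88 for Tyrobp. For the classical complement list, 3 genes were called for the slope by DESeq2 and 4 by limma voom in place of 1, and for the Trem2 signalling list 4 and 3 in place of 2. Depth limits Trem2 most, with 79 reads in its lowest library.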
